A study of Mus musculus with 80 samples.

Results

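Transient H3K9me3 regions were stretches of the mouse genome that carried an H3K9me3 peak on the way from fibroblast to pluripotent cell and at neither end of it. The 8 H3K9me3 peak lists of the time course were merged over chromosomes 1 to 19, X and Y into 48835 regions. Members were chosen by the deposited H3K9me3 peaks themselves: peaks had to follow each other over 3 or more of the stages D2, D4, D6, D8, D10 and D12, and D0 and iPSC had to be without one. This rule kept 666 regions, 1.36% of all merged regions and 3.49% of the 19079 regions with an intermediate peak and no end peak. The H3K9me3 values below therefore describe the members and test nothing.

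The data were CUT&Tag libraries, in which an antibody guides a transposase to cut and tag DNA beside a histone mark. The titles list 80 libraries (5 marks, 8 stages, 2 libraries of each), and 1 peak list per mark and stage was used. D0 was the starting culture of mouse embryonic fibroblasts (MEFs) at passages 1-3, given the strain 129XOG2 and taken from embryos of E13.5. D2 to D12 were cells sampled every 2 days in a reprogramming medium whose agents the labels do not give, and iPSC were the reprogrammed stem cells, grown on feeder cells with N2, B27, LIF, CHIR99021 and PD0325901. All groups carry the strain label of the MEFs. The labels do not say whether feeder cells were removed before the iPSC libraries were made.

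H3K9me3 marks constitutive heterochromatin. It is laid down by methyltransferases such as SETDB1, which KRAB zinc finger proteins and TRIM28 bring to transposable elements and to one parental copy of imprinted control regions, and by the SUV39H enzymes at repeats. It is known to hinder the binding of reprogramming factors in fibroblasts. H3K4me3 marks promoters, H3K27ac and the lactylation mark H3K18la accompany active promoters and enhancers, and H3K27me3 is the mark of Polycomb repression.

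With 1 list per mark and stage there was no replicate spread, so no difference below was tested, and nothing here is shown to be particular to the transient regions. Shares are given with 95% Wilson intervals, which cover counting error only, since neighbouring regions are not independent. The H3K9me3 lists held between 7591 (D8) and 25050 (D4) peaks, and their depth, read as the most common local background, lay between 1.73 fragments per position in iPSC and 3.61 at D2. Peaks at marker genes were counted in the gene body or within 1 kb. H3K27ac lay at 24 of 25 fibroblast genes at D0 and at 4 of 25 in iPSC. H3K4me3 changed less there, from 24 of 25 at D0 to 16 of 25 in iPSC. At pluripotency genes, H3K4me3 lay at 11 of 25 at D0 and at 25 of 25 in iPSC. H3K27ac lay at 8 of these 25 already at D0, at 21 at D12 and at 20 in iPSC. Of the defining pluripotency genes Pou5f1 and Nanog, neither had an H3K4me3 peak at D0 and both had one in iPSC. Nanog had no H3K27ac peak in iPSC.

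The sequences of 4 promoters are shown because they belong to the 4 members that carried the promoter mark H3K4me3 at all 8 stages, including those with H3K9me3. All 4 members lay within 1 kb of the end of a protein-coding gene. Each sequence is a RefSeq promoter of GRCm38.p6, from 250 bases before to 50 after an annotated start, written 5′ to 3′ on the strand of the gene, with CG dinucleotides in capitals. They are the promoters of Zfp433 (chr10:81704575-81704874, plus strand), a zinc finger gene, of the predicted genes Gm32687 (chr10:81863641-81863940, plus strand) and Gm38396 (chr17:17179055-17179354, plus strand), and of Snurf (chr7:60005150-60005449, minus strand), the upstream reading frame of the imprinted Snurf-Snrpn transcript.
Zfp433 promoter: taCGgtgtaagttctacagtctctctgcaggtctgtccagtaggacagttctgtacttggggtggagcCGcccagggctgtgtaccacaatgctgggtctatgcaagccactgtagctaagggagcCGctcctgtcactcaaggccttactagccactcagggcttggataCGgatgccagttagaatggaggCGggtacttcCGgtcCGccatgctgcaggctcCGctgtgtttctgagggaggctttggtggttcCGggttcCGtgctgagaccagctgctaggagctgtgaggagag
Gm32687 promoter: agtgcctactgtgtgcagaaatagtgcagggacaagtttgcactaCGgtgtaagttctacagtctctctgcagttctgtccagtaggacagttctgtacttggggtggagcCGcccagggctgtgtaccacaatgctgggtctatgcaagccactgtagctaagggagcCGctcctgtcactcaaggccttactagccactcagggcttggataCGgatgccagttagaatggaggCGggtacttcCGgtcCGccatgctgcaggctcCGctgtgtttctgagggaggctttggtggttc
Gm38396 promoter: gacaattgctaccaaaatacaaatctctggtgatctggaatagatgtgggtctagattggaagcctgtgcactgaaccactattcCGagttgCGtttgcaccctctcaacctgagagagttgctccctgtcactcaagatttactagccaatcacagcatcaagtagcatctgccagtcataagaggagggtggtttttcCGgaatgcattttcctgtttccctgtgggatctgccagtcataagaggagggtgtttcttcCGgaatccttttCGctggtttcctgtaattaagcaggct
Snurf promoter: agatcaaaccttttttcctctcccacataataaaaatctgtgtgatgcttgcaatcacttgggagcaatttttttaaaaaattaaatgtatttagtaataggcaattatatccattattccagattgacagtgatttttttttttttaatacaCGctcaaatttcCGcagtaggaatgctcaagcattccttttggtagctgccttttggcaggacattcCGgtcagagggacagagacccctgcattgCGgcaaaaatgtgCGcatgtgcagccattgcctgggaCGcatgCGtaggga

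The Zfp433 promoter lay wholly inside its member, chr10:81704479-81705141, and held 10 CG dinucleotides. Gm32687 shared 210 of its promoter bases with chr10:81863731-81864250 and held 8. A stretch of 226 bases was identical between these promoters, so short reads from one copy can be placed on the other and the paired peaks are not independent. Gm38396 lay inside chr17:17178974-17179540 with 5 CG dinucleotides. The Snurf promoter lay 96 bp outside chr7:60003822-60005054, whose nearer end lay 145 bp inside the gene, and held 7. Among the 32851 promoters of the table the median was 7 and 26.5% held 20 or more. The 12 promoters that shared bases with a member, from 10 genes, had a median of 6, and the 833 that shared bases with any merged region a median of 14. The letters TGCCGC, the core recognised by the imprinting factor ZFP57, were searched on both strands. They occurred in 11.6% of all promoters, once in the Snurf promoter and in 0 of the 12 promoters on members.

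The stage windows were weighted to the early stages. D2, D4 and D6 alone made up the most frequent combination, with 207 members (31.1%). Another 73 had those stages and D10, 49 had D2 to D8, 47 had D4 to D8 and 44 had D2 to D10. A total of 40 members (6.01%) had a peak at every stage from D2 to D12. D2, D4 and D6 were all occupied in 491 members (73.7%) and D4 and D6 in 581. The longest run ended at D6 in 347 members, at D8 in 113, at D10 in 92 and at D12 in 114. In 208 members (31.2%) a further peak lay outside the longest run, so that occupancy was interrupted.

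**Figure D1:**
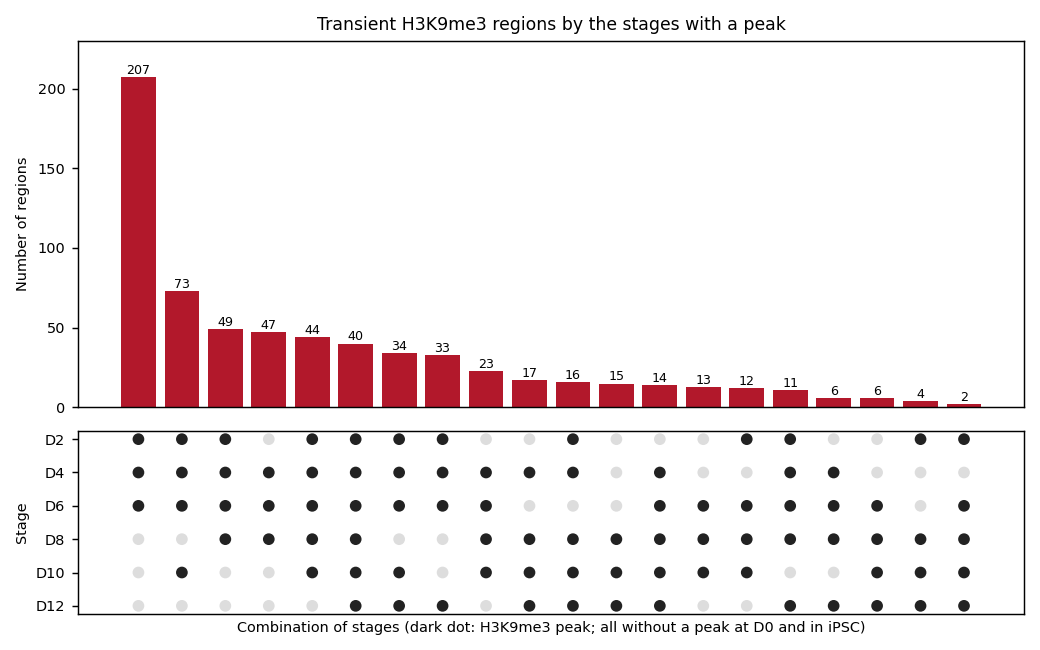
Bars give the number of the 666 transient regions with each combination of stages, and dark dots under a bar mark the stages with an H3K9me3 peak. The combination of D2, D4 and D6 leads with 207 regions, and 40 regions have a peak at all 6 stages.

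The number of members with a peak fell after D6. From D2 to D12 in order, a peak was present in 525, 614, 614, 319, 313 and 198 members, while the lists held 15906, 25050, 10744, 7591, 12027 and 8657 peaks. Counts did not follow the lengths of the lists in order, since D4 and D6 had equal counts and D10 fewer members than the shorter D6 list. The rule itself shapes these counts. The 491 members whose longest run starts at D2 must each have a peak at D4 and D6. A run of 3 stages can hold D2 or D12 in fewer ways than D6 or D8. Members per 100 peaks ranged from 2.29 at D12 to 5.71 at D6. The parts of the rule, list length and depth in these counts were not tested. Run lengths fell off steeply around the threshold. Among regions with no end peak, 15921 had a longest run of 1 stage and 2492 a run of 2, just outside the rule, while 477 had a run of 3, just inside it, 91 a run of 4, 58 a run of 5 and 40 a run of 6. Median length was 659.5 bp for runs of 2 and 741 bp for runs of 3.

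Peaks on transient regions were of ordinary height for their lists. The authors' fold enrichment over local background had medians of 3.92, 4.07, 4.08, 4.43, 4.31 and 4.34 from D2 to D12 in order. All peaks of those lists had medians of 3.90, 3.98, 4.09, 4.38, 4.16 and 4.18. Ranked by −log10 q-value and not by fold, the median member peak stood between the 43.2 and the 59.8 percentile of its list. The fold enrichments are set against each list's own background and give no change in the amount of H3K9me3 between stages. The merged regions were short, with a median of 773.5 bp and a range from 327 to 3149 bp.

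**Figure D2:**
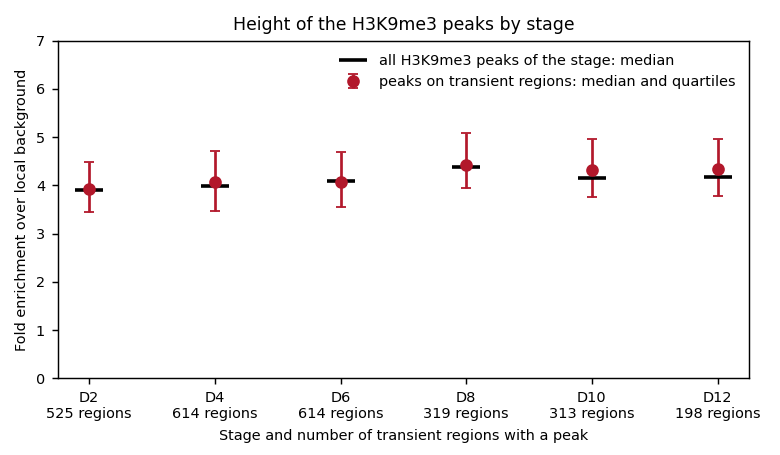
Points with bars give the median and quartiles of the authors' fold enrichment for H3K9me3 peaks on transient regions at each stage, and black dashes the median of all H3K9me3 peaks of that stage. The medians lie between 3.92 and 4.43 and beside those of the whole lists.

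Distances from members to the nearest called end peaks varied, and they do not measure H3K9me3 on the member itself. The nearest D0 peak lay a median of 31.2 kb away and the nearest iPSC peak 33.2 kb. For 48 members an end peak lay within 1 kb and for 160 within 5 kb. Local background was a median of 1.53 times the genome-wide background over members, and 25 members (3.75%) stood at 5 times or more. The highest, 16.1 times, was chr8:55116087-55117228 at the predicted gene Gm51571. Counted by peak at D2 to D12, 4.27% of those on members stood at 5 times or more. Among other regions with a run of at least 3, the share was 11.7% with a D0 peak only. It was 4.29% with an iPSC peak only and 9.88% with both. Intermediate runs of 1 or 2 stages had 2.61%.

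The steadiest members, with peaks at all 6 intermediate stages, were led by chr1:139783817-139784839, 2578 bp from the predicted gene Gm4788. Its fold enrichment over D2 to D12 in order was 4.34, 5.65, 6.28, 6.42, 5.85 and 6.57, the lowest value standing at D2. No other mark had a peak there at any stage, and the nearest D0 and iPSC peaks were 39820 and 39617 bp away. Next came chr8:101107211-101108050, in a gene desert 1524045 bp from Cdh11, a cadherin gene. Fold enrichment there over the same stages was 5.24, 6.31, 5.93, 5.92, 4.99 and 4.48, the highest value standing at D4. All 4 other marks had a peak on it in iPSC and none had one earlier. Another member, chr11:34223125-34223734, lay 3081 bp from Dock2, a guanine nucleotide exchange factor of blood cells, and reached a fold of 7.51 at D6. It also carried H3K27me3 at every stage except D2, H3K27ac at D0, D6 and D10, and H3K18la at D6. All 4 other marks lay on it in iPSC. Within Arhgap15, chr2:44173604-44174503 ranged from 4.48 at D8 to 6.84 at D10. That region carried H3K4me3 at D12 and in iPSC and H3K27ac and H3K27me3 in iPSC.

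Of the 10 members with the longest runs and highest folds, the other 6 had median folds from 4.93 to 5.34. Those on chr12:113335278-113336648 and chr14:5042417-5043469 carried H3K27ac, H3K18la and H3K27me3 at some stages. The members at chrX:63125984-63126929 and chr3:60237089-60237810 carried H3K4me3 in iPSC alone. At chr2:39892633-39893405 and chr1:122710824-122712143 no other mark had a peak.

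Most transient regions lay outside genes. A total of 174 (26.1%, 22.9 to 29.6) touched a protein-coding gene body, beside 23.5% of all merged regions, which is the background for this count. Gene bodies cover 37.9% of the chromosome length. Shares were 26.7% (24.4 to 29.0) for the 1407 regions with a D0 peak, a run of at least 3 and no iPSC peak, 18.8% (16.5 to 21.4) for the 977 with an iPSC peak and no D0 peak, and 21.1% for the 3597 with both. These comparison classes share a minimum run of 3 with the members and were chosen after the data were seen. Their runs and regions were longer, with a mean longest run of 4.01, 3.76 and 4.68 stages and a median length of 967, 942 and 1158 bp, beside 3.49 stages and 773.5 bp for the members. A gene end lay within 1 kb of 24 members (3.60%, 2.43 to 5.31), beside 3.03% of all merged regions. A total of 257 members (38.6%, 35.0 to 42.3) lay over 100 kb from any protein-coding gene, beside 34.0% of all merged regions and 33.5% of the D0 class. The regions with an iPSC peak and no D0 peak had 40.4% over 100 kb from a gene, and those with both had 37.3%. For gene bodies, gene ends and the share over 100 kb away, the intervals of members and D0 class overlapped.

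**Figure D3:**
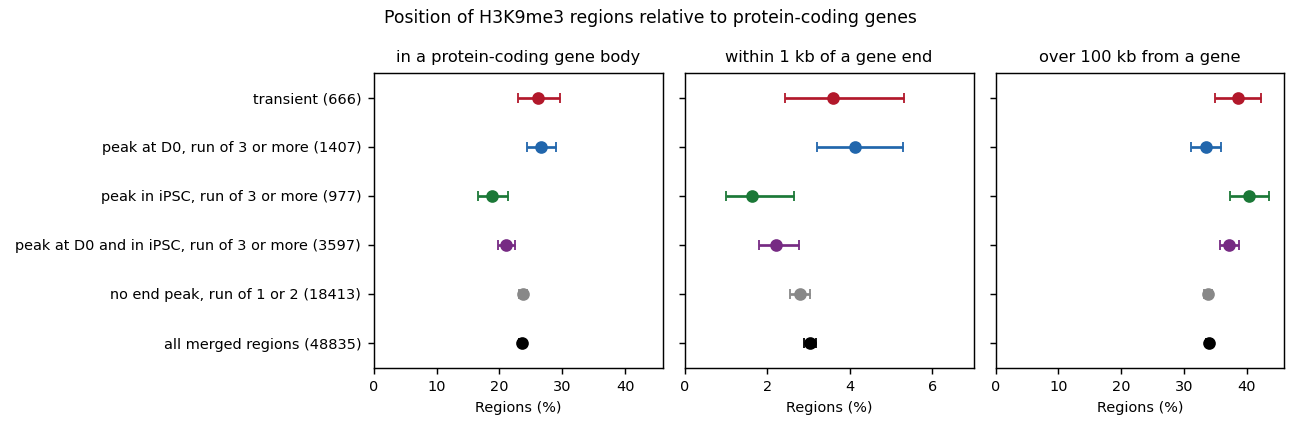
Points give the percent of each class of merged H3K9me3 regions in a gene body, within 1 kb of a gene end or over 100 kb from a gene, with 95% Wilson intervals and the number of regions in brackets. Transient regions stand at 26.1%, 3.60% and 38.6%.

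By chromosome, 51 members lay on chromosome 4, 48 on chromosome 14, 8 on chromosome 19 and 1 on Y. Chromosome 14 held 7.21% of members and 5.06% of merged regions, chromosome 4 held 7.66% and 6.32%, and chromosome 19 held 1.20% and 1.89%. Y held 0.924% of merged regions. Neighbouring members were few. With a gap of at most 100 kb, 576 members stood alone and 90 (13.5%) fell into 38 groups. The largest group had 5 members within chr18:37663384-37768440, in the gamma protocadherin cluster. A group of 4 lay in chr14:4592428-4782849 among predicted genes. Groups of 3 lay in the Sprr2a genes of the cornified envelope (chr3:92218943-92263672), the Tdpoz genes (chr3:93701169-93806585) and a stretch downstream of Snurf (chr7:59786566-59886098), where the median local background was 4.65 times the genome-wide one.

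The other marks were the readout that the rule did not use. Each of the 4 marks was more frequent on transient regions in iPSC than at any earlier stage. The counts are over all members at each stage, whether or not H3K9me3 was there. H3K4me3 lay on 6 members (0.901%) at each of the first 4 stages, on 7, 9 and 30 (4.50%) at the next 3, and on 151 (22.7%, 19.7 to 26.0) in iPSC. Over all merged regions the shares with H3K4me3 were 1.95% at D0, then 2.11%, 2.04%, 2.03%, 2.23%, 2.83% and 6.70% over the stages from D2 to D12 in order, and 12.2% in iPSC. Members were thus below the background up to D12 and above it in iPSC.

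H3K27ac lay on 11, 8, 8, 9, 16 and 23 members from D0 to D10 in order, on 60 (9.01%, 7.06 to 11.4) at D12 and on 113 (17.0%, 14.3 to 20.0) in iPSC. The background was 2.75% at D0, then 2.21%, 2.00%, 2.27%, 2.40%, 3.19% and 8.34% over the stages from D2 to D12 in order, and 8.52% in iPSC. The share of transient regions with the acetyl mark passed the background in iPSC and was near it at D8, D10 and D12.

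H3K18la stayed low throughout, on 11, 6, 8, 14, 11, 7 and 7 members from D0 to D12 in order and on 49 (7.36%, 5.61 to 9.59) in iPSC. The background was 2.30% at D0, then 1.37%, 2.13%, 2.67%, 2.30%, 1.69% and 1.96% over the stages from D2 to D12 in order, and 5.80% in iPSC. The D2 list of this mark looks filtered, since its 7043 lines carry peak numbers up to 22582, and its count is not comparable with the others.

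H3K27me3 was on 14, 8, 9 and 14 members from D0 to D6 in order, on 30 (4.50%), 26 and 28 at the next 3 stages and on 105 (15.8%, 13.2 to 18.7) in iPSC. The background was 1.63% at D0, then 1.22%, 1.20%, 1.15%, 1.68%, 1.87% and 2.07% over the stages from D2 to D12 in order, and 4.72% in iPSC. From D8 on, the share of members with the Polycomb mark was over 2 times the background. It stood at 4.50%, 3.90% and 4.20% at D8, D10 and D12. The D0 class had higher shares, 5.05%, 5.69% and 6.75%, with overlapping intervals. H3K27me3 at D8 lay on 6.27% (4.09 to 9.48) of the members with H3K9me3 at that stage and 2.88% (1.57 to 5.22) of those without. These intervals overlapped. The same split gave 1.14% and 1.42% at D2, 1.30% and 1.92% at D4, and 1.95% and 3.85% at D6. It gave 3.83% and 3.97% at D10 and 5.05% and 3.85% at D12. At D12 H3K4me3 was on 5.56% of the members with H3K9me3 and 4.06% of those without, with overlapping intervals.

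Set beside the D0 class, the iPSC shares of transient regions were close for H3K4me3 and lower for H3K18la. In that class H3K4me3 in iPSC stood at 21.1% (19.06 to 23.3), H3K27ac at 21.0% (18.99 to 23.2), H3K18la at 13.7% (12.02 to 15.6) and H3K27me3 at 20.8% (18.7 to 23.0). With the full lists, the intervals of members and D0 class overlapped for H3K4me3, for H3K27ac and, barely, for H3K27me3. They were separate for H3K18la. In the 977 regions with an H3K9me3 peak in iPSC and none at D0, H3K4me3 reached 37.6% and H3K27me3 8.39%. Regions with intermediate runs of 1 or 2 stages had 6.37% and 3.08%. By region length, H3K4me3 in iPSC lay on 14.6% of transient regions up to 500 bp, 28.3% from there to 700 bp, 23.4% to 900 bp, 20.9% to 1200 bp and 12.1% beyond. The D0 class had 20.0%, 22.6%, 27.6%, 22.1% and 14.7% in those bins and the shorter runs 5.49%, 7.90%, 8.73%, 6.01% and 9.83%. Members stood above the D0 class in 1 of the 5 bins. The part of run length in these shares was not tested.

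**Figure D4:**
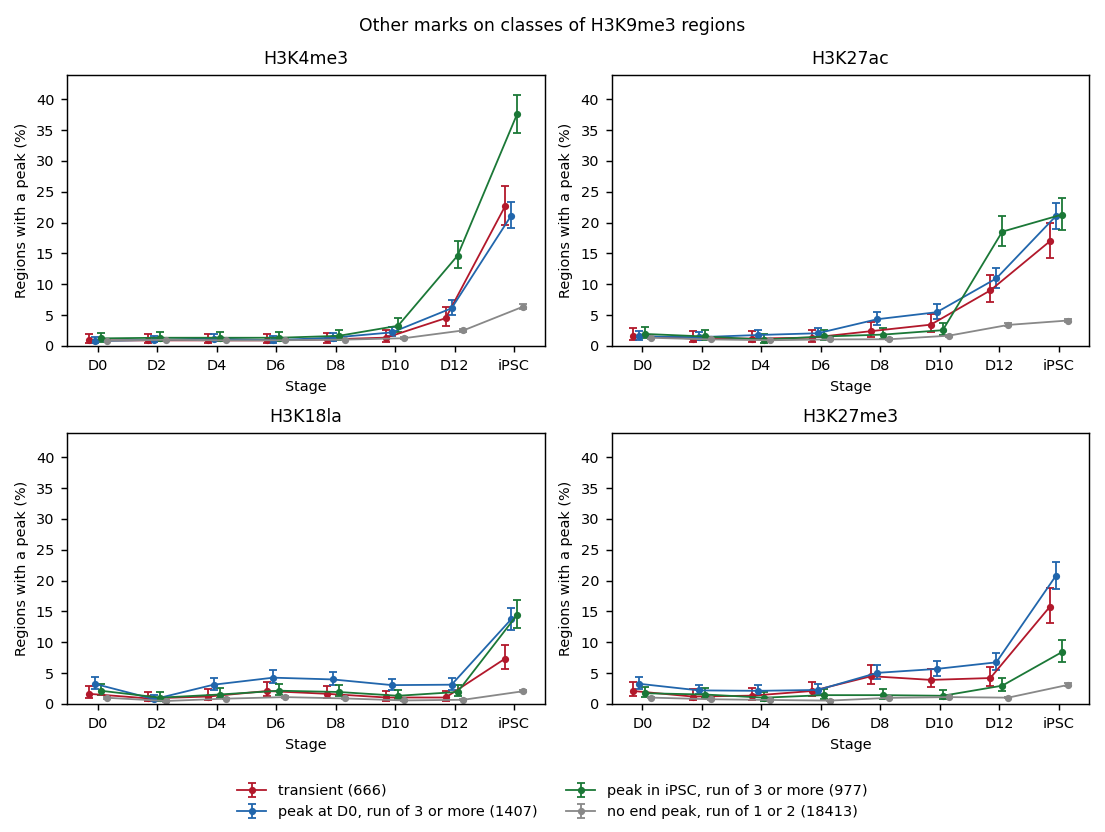
Each panel gives, by stage, the percent of regions with a peak of 1 mark, for transient regions and 3 other classes of H3K9me3 regions, with 95% Wilson intervals. Transient regions stay at or below 9.01% up to D12 and reach 22.7%, 17.0%, 7.36% and 15.8% in iPSC for H3K4me3, H3K27ac, H3K18la and H3K27me3.

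Counted together, any of H3K4me3, H3K27ac or H3K18la lay on 82 members (12.3%, 10.0 to 15.0) at D2 to D12, beside 11.5% of all merged regions. H3K27me3 at any of those stages lay on 51 (7.66%, 5.87 to 9.93), beside 3.58%. The D0 class was higher in both counts, with 19.8% for H3K4me3, H3K27ac or H3K18la and 11.2% for H3K27me3. Any of the 4 marks in iPSC lay on 232 (34.8%, 31.3 to 38.5), beside 15.8% of all merged regions and 38.9% of the D0 class. No mark was seen at any stage on 413 members (62.0%, 58.3 to 65.6), beside 79.5% of all merged regions and 55.8% of the D0 class. The iPSC list of H3K4me3 was the longest of that mark, with 35333 peaks. With every H3K4me3 list held to the 18944 strongest peaks, 88 members (13.2%, 10.9 to 15.997) had the mark in iPSC and 17 (2.55%) at D12. H3K27ac lists of 16671 peaks gave 105 members in iPSC and 26 at D12, and H3K27me3 lists of 7574 gave 68 and 27. H3K18la lists of 7009 gave 23 (3.45%) in iPSC, in place of 49, and 7 at D12.

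Among the 151 members with H3K4me3 in iPSC, 123 (81.5%) had it at no earlier stage. H3K27ac lay on 80 of them (53.0%, 45.0 to 60.8) and H3K27me3 on 50 (33.1%, 26.1 to 41.0). Of the 515 members without H3K4me3 in iPSC, 55 (10.7%, 8.30 to 13.6) had H3K27me3. This split was not made over all merged regions or the D0 class, so it is not shown to be particular to members. All 4 marks lay on 12 members in iPSC, H3K4me3 alone on 49 and H3K27me3 alone on 41. H3K4me3 peaks on members had a median fold of 7.91 in iPSC, beside 5.44 for the whole list and 8.45 for those on any merged region. H3K27me3 peaks had 5.24, beside 3.88 and 5.00.

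Shares of the iPSC marks differed with the length of the H3K9me3 run, without a steady order. H3K4me3 in iPSC lay on 19.5% (16.2 to 23.3) of the 477 members with a run of 3, 22.0% (14.7 to 31.5) with a run of 4, 43.1% (31.2 to 55.9) with a run of 5 and 32.5% (20.1 to 48.0) with a run of 6. H3K27me3 stood at 13.2% (10.5 to 16.5), 18.7% (12.004 to 27.9), 25.9% (16.3 to 38.4) and 25.0% (14.2 to 40.2), and all of these intervals overlapped. H3K27ac lay on 69 of 477, 15 of 91, 17 of 58 and 12 of 40 members, and H3K18la on 29, 4, 8 and 8. H3K4me3 in iPSC lay on 27.8% (23.1 to 33.0) of members with H3K9me3 at D10 and 18.1% (14.5 to 22.5) of those without. Split by H3K9me3 at D12 the shares were 27.8% (22.0 to 34.4) and 20.5% (17.1 to 24.4), with overlapping intervals. H3K27me3 in iPSC stood at 17.9% and 13.9% in the D10 split and at 19.2% and 14.3% in the D12 split, again with overlap. H3K4me3 in iPSC was on 28.2% (22.0 to 35.3) of members in gene bodies, 13.6% (9.81 to 18.6) of the 235 outside genes and up to 100 kb away, and 27.2% (22.2 to 33.0) of those farther away.

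**Figure D5:**
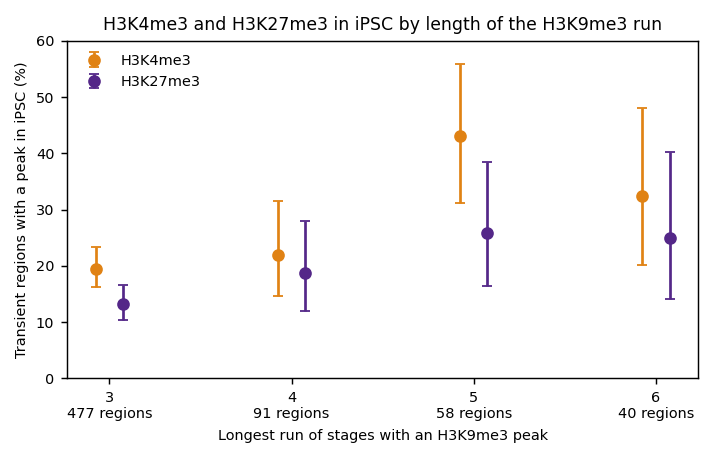
Points give the percent of transient regions with an H3K4me3 or H3K27me3 peak in iPSC, by the longest run of H3K9me3 stages, with 95% Wilson intervals. H3K4me3 stands at 19.5%, 22.0%, 43.1% and 32.5% for runs of 3 to 6, and H3K27me3 at 13.2%, 18.7%, 25.9% and 25.0%.

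At imprinted genes, H3K9me3 and H3K4me3 were found on the same regions. The member at Snurf and Snrpn, which encodes a small nuclear ribonucleoprotein and is expressed from the paternal copy, had folds of 4.77, 7.16, 6.12, 3.94 and 4.31 over D2 to D10 in order, with no peak at D12. It carried H3K4me3 at all 8 stages and H3K27ac at each except D2. No D0 or iPSC peak lay within 133192 bp. Within Grb10, a growth regulator with parent-specific promoters, chr11:12025582-12026266 had folds of 3.78, 4.30, 4.61, 4.16 and 4.15 over the same stages. H3K4me3 lay on it from D2 to iPSC, H3K18la at D2, D8 and D12, and H3K27me3 at D6. These were 2 regions at 3 of the 29 imprinted genes matched, beside 1.30% of all protein-coding genes. H3K9me3 regions of any class lay within 10 kb of 23 of the 29 (79.3%) and of 37.7% of all genes, and D0-class regions near 5 of the 29 and 2.50% of all genes. A bulk peak list cannot tell 2 marks on one allele from 1 mark on each, or from different cells.

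A total of 18 of 397 zinc finger genes (4.53%) had a member in the body or within 10 kb, beside 284 of 21883 protein-coding genes (1.30%), and 20 regions accounted for them. H3K9me3 regions of any class lay near 69.5% of zinc finger genes and 37.7% of all genes, and D0-class regions near 40 (10.1%) and 2.50%. Their median fold was 3.42 and their median local background 2.89 times the genome-wide one. Zinc finger genes lie in clusters of similar copies, where reads can be placed on more than 1 gene. At Zfp433 the fold was 4.38 at D2, 5.83 at D4, 5.18 at D6 and 6.31 at D12. Its copy Gm32687 had 5.19, 5.04 and 7.40 at D2, D4 and D6, then 5.26 at D10 and 10.4 at D12. Near Zfp51, chr17:21474417-21475376 had 5.95 at D2, 4.89 at D4, 5.32 at D8, 6.62 at D10 and 7.17 at D12, with H3K4me3 at all stages from D0 to D12 and none in iPSC. Together with Gm38396, Snurf and Grb10 these made up the 6 members with H3K4me3 at D4.

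Other zinc finger loci differed. Zfp629 held a wide member, chr7:127610410-127612839, with folds from 3.67 at D2 to 6.19 at D8, and all 4 other marks lay on it in iPSC and at no earlier stage. Zfp809, known in mouse for silencing of endogenous retroviruses, and its neighbour Zfp599 shared chr9:22255506-22256648, with folds of 3.06, 2.66 and 3.45 at D2, D4 and D6. At Zfp978 and Zfp988, chr4:147336727-147337414 had peaks at all 6 intermediate stages, but its local background was 13.4 times the genome-wide one and D0 and iPSC peaks lay 480 and 413 bp away. No other mark was found on 12 of the 20 regions.

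In the protocadherin clusters, which encode neuronal adhesion molecules, 27 of 57 genes (47.4%) were within reach of a member, beside 1.30% of all genes. Only 8 regions accounted for them, because the genes overlap or lie within 10 kb of the same region. Within reach of a D0-class region were 48 of the 57, beside 2.50% of all genes. H3K9me3 regions of any class lay near 53 of the 57 (93.0%) and 37.7% of all genes. All 8 members held D2, D4 and D6, beside 73.7% of all members. Of the 8, 6 carried H3K27me3 in iPSC, beside 15.8% of all members. They all lie on chromosome 18, and neighbouring regions are not independent. The one inside Pcdhb2, chr18:37296425-37297121, had folds of 4.36, 4.37, 4.69 and 4.52 at D2, D4, D6 and D10, with H3K4me3 in iPSC and H3K27me3 at D8 and in iPSC.

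Sensory receptor genes had members about as often as all genes. Members were near 14 of 1110 olfactory receptor genes (1.26%), through 12 regions, and near 4 of 355 vomeronasal receptor genes (1.13%). Cytochrome P450 genes had 4 of 99 (4.04%), through 3 regions, beside 1.30% of all genes. H3K9me3 regions of any class lay near 57.6% of these genes and 37.7% of all genes, and D0-class regions near 1 of the 99. One fibroblast gene of 25 was hit, Dcn, which encodes the matrix proteoglycan decorin. Within it, chr10:97490459-97491460 had folds of 4.79 at D2, 5.35 at D4 and 6.27 at D6, and no other mark. Adgre1, a macrophage marker, and Cyp3a11, a hepatic gene, each had a member within 10 kb. No member lay near any of 25 pluripotency genes, 33 lineage regulators, 20 germline genes, 9 matched genes of the two-cell-like state, 39 Hox genes, 58 histone genes, 63 serpin genes or 112 keratin genes. With 1.30% of all genes near a member, a count of 0 in the shorter of these lists is near that share. The lists for epithelial, primitive endoderm, trophoblast, endothelial, neuronal and skeletal muscle cells also had 0.

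The 24 members at gene ends had median folds from 2.39 to 5.53. A total of 22 of them held D2, D4 and D6, beside 73.7% of all members, and 8 carried no other mark at any stage, beside 62.0%, among them those at Rsrc1, a splicing factor gene, Olfr398, an olfactory receptor gene, Zfp397 and Zfp386. At Igbp1b the fold was 3.93 at D4, 6.20 at D6 and 5.53 at D8, with H3K27me3 in iPSC. Mup2, a major urinary protein gene, had 3.70 at D2, 6.57 at D4, 3.59 at D6 and 4.27 at D10, with H3K27ac at D10 and in iPSC. Chst13, a chondroitin sulfotransferase gene, carried H3K4me3 and H3K27me3 in iPSC at its member, and Dnah8, an axonemal dynein gene, carried H3K4me3, H3K27ac and H3K18la. In all, 9 of the 24 had H3K4me3 in iPSC and 6 had H3K27me3, beside 22.7% and 15.8% of all members.

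The membership itself moved with the peak threshold. With a −log10 q-value of at least 5 required in every list, 430 regions met the rule, and 291 of the 666 members (43.7%) were among them. With all 8 H3K9me3 lists held to their 7591 strongest peaks, 857 regions met it and 217 members (32.6%) were among them.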

How the data were processed

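CUT&Tag peak lists of 5 marks at 8 stages were used, 40 in all. Per the submitters' processing notes MACS2 2.1.2 and Bowtie2 2.2.5 were used with mm10, as were deepTools 3.4.3 and fastp 0.20.1. The sources used here do not say if the 2 libraries of a stage were pooled or if a control was used. The authors deposited for each peak a fold enrichment, the ratio of pileup to local background, with the −log10 of its p-value and of its q-value. Depth is known only through the background, solved from fold and p-value under a Poisson model for 96.2% to 99.9% of peaks per list. Of 713652 peaks, 3092 on other sequences were left out.

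Overlapping H3K9me3 peaks of any stage were merged, and a mark was on a region when at least 1 bp was shared. Mark and stage of a list came from the titles. Genes were 21883 protein-coding entries placed once in RefSeq's GRCm38.p6 table, whose coordinates are those of mm10. Genes and members were named from these sets: genes with a member within 1 kb of a gene end, the 10 members with the longest run (ties by median fold), and genes of fixed lists with a member within 10 kb. Some items of these sets are not reported here. Members, lists and comparison classes were chosen with earlier results of these data known. Region sequence and repeats were not analysed here. Python 3.11.15, pandas 2.3.3, numpy 2.4.6, scipy 1.17.1 and matplotlib 3.10.9 were used, and the merging, the rule and the solving step were tested on simulated peaks.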

Additional observations from a re-analysis of the deposited data

How the results depend on the processing

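A −log10 q-value of at least 5 in every list gave 430 regions, with H3K4me3 in iPSC on 27.7% and H3K27me3 in iPSC on 18.8%. Applied to the D2 to D12 lists alone it gave 295, with 29.8% in gene bodies, H3K27me3 at D2 to D12 on 10.2%, active marks at D2 to D12 on 16.9%, and H3K4me3 and H3K27me3 in iPSC on 29.5% and 22.4%. H3K9me3 lists of equal length moved H3K4me3 in iPSC to 31.4%. Runs of 2 stages gave 3158 regions, and the shares fell to 4.69% for H3K27me3 and 9.66% for active marks at D2 to D12 and to 14.6% and 8.61% for H3K4me3 and H3K27me3 in iPSC. Runs of 4 gave 189 regions, 10.6% with H3K27me3 at D2 to D12, and 30.7% and 22.2% in iPSC.

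Without the D2 list the count was 324, with 27.2% and 20.1% for H3K4me3 and H3K27me3 in iPSC. Without the D4 list the count was 296, with 26.7% and 20.3%. Without the D6 list it was 405. Without the D8, D10 or D12 list it was 670, 598 and 616. Fewer stages can form a run in each of these settings. Without a list from D4 to D10, the stages on either side of it count as following each other. When another mark had to cover 50% of the region, H3K27me3 and active marks at D2 to D12 stood at 5.41% and 8.71%, and H3K4me3 and H3K27me3 in iPSC at 18.9% and 11.0%. Gene bodies widened by 10 kb held 37.1%. Lists of the other marks at equal length gave 7.36% for active marks at D2 to D12 and 13.2% and 10.2% for H3K4me3 and H3K27me3 in iPSC.

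The cause of these shifts was not tested where the setting does not itself change which regions are counted. Counts stayed within 1.5 times of the main count in 9 of 16 alternatives, and the gene body share within its interval in 15 of 17. The iPSC shares, equal-length lists of other marks, leaving out regions of high local background and taking 1 region per 100 kb group were added after seeing the data. No paired analysis was possible because each mark and stage has 1 list and no result comes from a test. Low background, 1.73 to 3.61 fragments per position, limits detection of weak peaks, so a stage without a peak is not shown to lack H3K9me3.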
